A study of Mus musculus with 12 samples.

Results

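The transcripts described here come from 9 homeobox genes chosen by name, Hoxa5, Hoxa7, Hoxa9, Hoxa10, Hoxb3, Hoxb4, Meis1, Pbx3 and Hhex, out of 54532 gene IDs in the count table. All 9 were found and all 9 passed the filter on low counts. They were measured by bulk RNA sequencing in haematopoietic stem and progenitor cells sorted from mouse bone marrow, uncultured, as lineage-negative cells that carry the receptor Kit (Lin-ckit+). The mice were on the C57BL/6 background and had been treated for 1 month in a competition experiment that asked how metformin, a biguanide used against diabetes that inhibits complex I of the respiratory chain, acts on mutant and normal progenitors. The 4 groups held 3 libraries each: RH MET, mutant cells (Dnmt3afl-R878H/+) from metformin-treated mice; RH VEH, the same genotype with vehicle; WT MET, Dnmt3a+/+ cells with metformin; and WT VEH, Dnmt3a+/+ cells with vehicle. Every group, the Dnmt3a+/+ groups included, came from crosses with the Mx1-cre line, whose Cre is driven by an interferon-inducible promoter that is active in blood-forming and other cells. The mutant allele is 1 of 2 copies and is switched on by Cre, so its share of recombined cells was not measured here. Per the labels, each treatment group had 2 animals, and which animal gave which library is not stated. The p-values below therefore rest on the variation among libraries, part of which may be technical, and they are too small where libraries share an animal. With 2 animals for the 3 libraries of a group, some libraries of each group would share an animal.

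Homeobox proteins are transcription factors that bind DNA through a conserved homeodomain. The Hox genes lie in clusters, and in blood formation several genes of the Hoxa and Hoxb clusters are active in stem and early progenitor cells and are switched off as the cells mature. Meis1 and Pbx3 belong to the TALE class of homeobox genes, whose proteins bind DNA together with Hox proteins, while Hhex is a homeobox gene outside the clusters that acts in blood and endothelial development. Dnmt3a encodes a de novo DNA methyltransferase, and in human acute myeloid leukaemia its mutations are found together with active HOX genes.

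Total counts were 13359583 to 21938003 per library. Dnmt3a itself stood at 39.7 to 59.9 CPM (counts scaled by library size with TMM factors) and Kit, which was used for the sort, at 118 to 200 CPM in the 12 libraries. The level of Dnmt3a does not check the genotype, since the mutation is a point change. The mitochondrial genome supplied 40.8% of the counts in RH VEH 2 and 33.3% in WT MET 2, against 1.57% to 4.32% in the other 10 libraries, so values are also given without these 2 libraries where they bear on a result.

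For the 7 genes other than Hoxb3 and Pbx3, promoters were taken from RefSeq on GRCm38.p6, as 8 windows of 300 bases that run from 250 bases before to 50 bases after a start site. CpG dinucleotides, the letters CG and the same on both strands, are the sites that Dnmt3a methylates. They numbered 4 to 37 in these windows, with a median of 14.5, against a median of 7 over 32851 promoters. The 4 windows below were chosen to show that range and Hoxa10 and Meis1, the 2 genes whose libraries were apart in 1 of the comparisons, and capitals mark each CpG. Methylation was not measured in these libraries. The Hoxa9 window (chr6:52227321-52227620, minus strand) holds 4 CpG, and 68.6% of all promoters hold at least as many.
Hoxa9 promoter: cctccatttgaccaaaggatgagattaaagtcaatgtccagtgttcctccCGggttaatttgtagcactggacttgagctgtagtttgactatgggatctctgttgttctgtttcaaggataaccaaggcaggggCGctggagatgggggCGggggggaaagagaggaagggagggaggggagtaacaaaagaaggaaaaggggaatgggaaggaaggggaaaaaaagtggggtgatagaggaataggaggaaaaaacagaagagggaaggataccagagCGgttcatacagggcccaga
The Meis1 window (chr11:19018920-19019219, minus strand) holds 15 CpG, a number that 34.6% of all promoters reach.
Meis1 promoter: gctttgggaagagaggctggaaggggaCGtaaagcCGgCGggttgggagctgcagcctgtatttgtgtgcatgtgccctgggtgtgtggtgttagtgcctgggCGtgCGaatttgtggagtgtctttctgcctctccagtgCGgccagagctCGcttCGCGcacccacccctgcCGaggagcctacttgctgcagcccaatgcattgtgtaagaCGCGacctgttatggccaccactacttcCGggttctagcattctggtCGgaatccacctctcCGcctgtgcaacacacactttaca
Hoxa10 has 2 windows, and the one shown, at its distal start (chr6:52240805-52241104, minus strand), holds 12 CpG, which 39.6% of all promoters reach.
Hoxa10 promoter: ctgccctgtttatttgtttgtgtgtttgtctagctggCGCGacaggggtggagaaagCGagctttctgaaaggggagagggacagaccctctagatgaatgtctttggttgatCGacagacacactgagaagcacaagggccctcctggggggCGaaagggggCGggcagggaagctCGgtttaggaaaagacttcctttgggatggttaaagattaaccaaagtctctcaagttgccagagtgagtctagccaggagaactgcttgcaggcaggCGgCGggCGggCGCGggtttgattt
The Hhex window (chr19:37434591-37434890, plus strand) holds 37 CpG, which 5.58% of all promoters reach.
Hhex promoter: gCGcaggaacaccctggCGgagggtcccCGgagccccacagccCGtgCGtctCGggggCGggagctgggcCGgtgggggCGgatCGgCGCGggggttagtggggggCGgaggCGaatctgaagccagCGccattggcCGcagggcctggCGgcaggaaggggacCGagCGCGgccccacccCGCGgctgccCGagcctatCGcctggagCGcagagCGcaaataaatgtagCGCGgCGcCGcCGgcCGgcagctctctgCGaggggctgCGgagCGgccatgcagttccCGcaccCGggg
The remaining windows held 9 CpG at Hoxa7, 14 at Hoxb4, 21 at the proximal start of Hoxa10 and 29 at Hoxa5. The 4 Hoxa genes are neighbours on chromosome 6 and are read from the minus strand. Hoxb4 and Hoxb3 lie side by side on the plus strand of chromosome 11.

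Levels of different genes were compared as CPM per kb of the deposited gene length. Hhex stood highest of the 9, at 19.9 ± 2.91 CPM per kb (mean ± SD over the 12 libraries), and was above Meis1 in 12 of 12 libraries. The next 4 genes were close together, with Meis1 at 2.64 ± 0.968, Pbx3 at 2.36 ± 0.354, Hoxa7 at 2.1 ± 0.464 and Hoxa9 at 2.07 ± 0.467 CPM per kb. Their order was not kept across libraries: Meis1 was above Pbx3 in 8 of 12, Pbx3 above Hoxa7 in 7 of 12 and Hoxa7 above Hoxa9 in 6 of 12, and each mean difference was smaller than its SD. Hoxb4 followed at 1.61 ± 0.843, Hoxa5 at 1.03 ± 0.275 and Hoxa10 at 0.515 ± 0.231 CPM per kb. Each gene from Hoxa9 to Hoxa10 was above the next in line in 11 of 12 libraries, although the mean differences from Hoxa9 to Hoxb4 and from Hoxb4 to Hoxa5 were smaller than their SDs. Hoxb3 stood lowest at 0.11 ± 0.0829 CPM per kb and below Hoxa10 in 12 of 12 libraries. Reads of Hoxb3 amounted to 100 in all, fewer than the 165 of its antisense gene Hoxb3os, and the strand setting of the counting, not given in the sources used here, decides how these reads are shared out.

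Most Hox counts in these cells came from the Hoxa and Hoxb clusters. Hoxc6, which did not pass the filter on low counts, averaged 0.15 CPM per kb, beside 0.11 CPM per kb for Hoxb3. The level of Hoxc6 was 0.36 ± 0.596 CPM (mean ± SD), with a highest library at 2.03 CPM. It had at most 20 counts in a library and 0 counts in 3 of 12 libraries, so the order of Hoxc6 and Hoxb3 is uncertain. Of all counts on the 39 Hox genes, the Hoxa cluster held 78.5%, the Hoxb cluster 19.5%, the Hoxc cluster 1.88% and the Hoxd cluster 0.0926%. The 6 Hox genes described here held 84.6%, and Hoxa9 alone held 38.3%. Only 11 of the 39 passed the filter on low counts, the other 5 being Hoxa3, Hoxa4, Hoxa6, Hoxb2 and Hoxb5, and 10 had 0 counts in all 12 libraries, 7 of them in the Hoxd cluster. Within Hoxa, the levels of Hoxa4 (0.468 CPM per kb) and Hoxa6 (0.51 CPM per kb) were near that of Hoxa10, and Hoxa11, its neighbour on the far side, had 0 counts in every library. Hoxa3 overlaps Hoxa5 on the same strand, and the antisense gene Hoxaas3 overlaps Hoxa5 and Hoxa7. They had 187 and 89 counts in all, against 427 for Hoxa5 and 1311 for Hoxa7, so part of the Hoxa5 level in particular is uncertain.

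**Figure D1:**
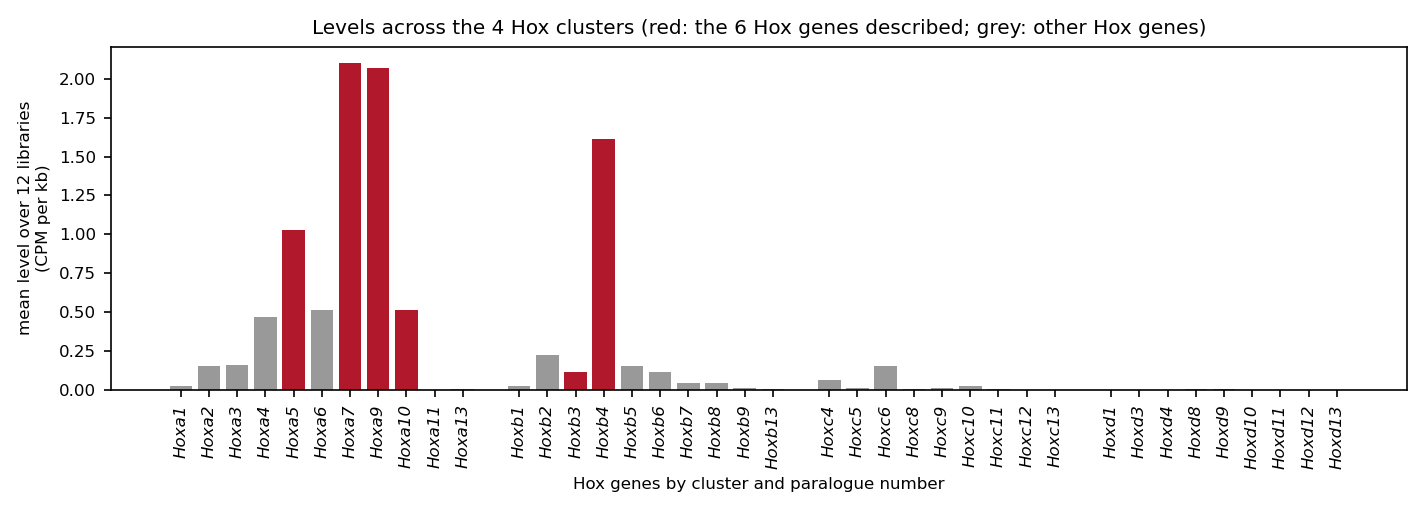
Mean level over the 12 libraries, in CPM per kb, of each of the 39 Hox genes in the order of the clusters and paralogue numbers. Red bars are the 6 Hox genes described here and grey bars the others; Hoxa7 (2.1) and Hoxa9 (2.07) are the tallest, Hoxb4 (1.61) is the tallest outside Hoxa, and the Hoxd cluster is at or near 0.

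Differences between groups were tested with edgeR's quasi-likelihood test over all 15003 genes that passed the filter, with Benjamini-Hochberg adjustment and a call at an adjusted p under 0.05. No homeobox gene of the 9 was called in any of the 7 comparisons. For mutant against wild type, 0 of 9 were called under vehicle, where 0% of all genes were called, and 0 of 9 under metformin, where 0.00667% were called. For metformin against vehicle, 0 of 9 were called in mutant cells and 0 of 9 in wild-type cells, and in both cases 0% of all genes were called. The difference between these metformin effects gave 0 of 9, with 0% of all genes. The mean genotype effect gave 0 of 9, with 0.00667% of all genes, and the mean metformin effect 0 of 9, with 0% of all genes. At an unadjusted p under 0.05, 1 of the 63 gene-by-comparison results was found, Hoxa10 for RH MET against WT MET, a comparison in which 5.78% of all genes had such a p. In the other 6 comparisons 0 of 9 had one. Over all genes the share was 2.03% for RH VEH against WT VEH, 2.43% for RH MET against RH VEH, 4.03% for WT MET against WT VEH, 6.21% for the difference between metformin effects, 2.65% for the mean genotype effect and 1.63% for the mean metformin effect. DESeq2 called 0 of the 9 in all 7 comparisons as well.

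Taken by sign, 6 of the 9 were positive and 3 negative for RH VEH against WT VEH, with a median log2 fold change of 0.086 beside 0.0023 over all genes tested. For RH MET against WT MET 2 were positive and 7 negative, with a median of −0.13 beside −0.017. For RH MET against RH VEH 3 were positive and 6 negative (median −0.082 beside −0.0054), and for WT MET against WT VEH 7 were positive and 2 negative (median 0.24 beside 0.013). The difference between the metformin effects in mutant and wild-type cells was positive for 1 and negative for 8, with a median of −0.30 beside −0.020. Without RH VEH 2 and WT MET 2 the medians were 0.086, −0.096, −0.13 and 0.021 in the 4 comparisons between groups, in the order above, and −0.22 for the difference, so the value for WT MET against WT VEH was near 0 without them. These medians depended on single libraries. The median for RH VEH against WT VEH was −0.165 without RH VEH 1 and 0.17 without WT VEH 2, and it was 0.315 in round 1 and −0.265 in round 2, so its sign was not stable. With 1 library left out at a time, that for RH MET against WT MET ran from −0.225 (without RH MET 3) to −0.0279 (without RH MET 1), and that for RH MET against RH VEH from −0.141 (without RH MET 2) to −0.0256 (without RH MET 1), with −0.23 in round 1 and 0.0572 in round 2. For WT MET against WT VEH the median was 0.0187 without WT MET 2 and 0.152 without WT VEH 2. The difference between the metformin effects had a median of −0.0666 without RH VEH 1, −0.138 without WT MET 2 and −0.508 without WT MET 1. These comparisons share libraries, and no test was made of the list.

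**Figure D2:**
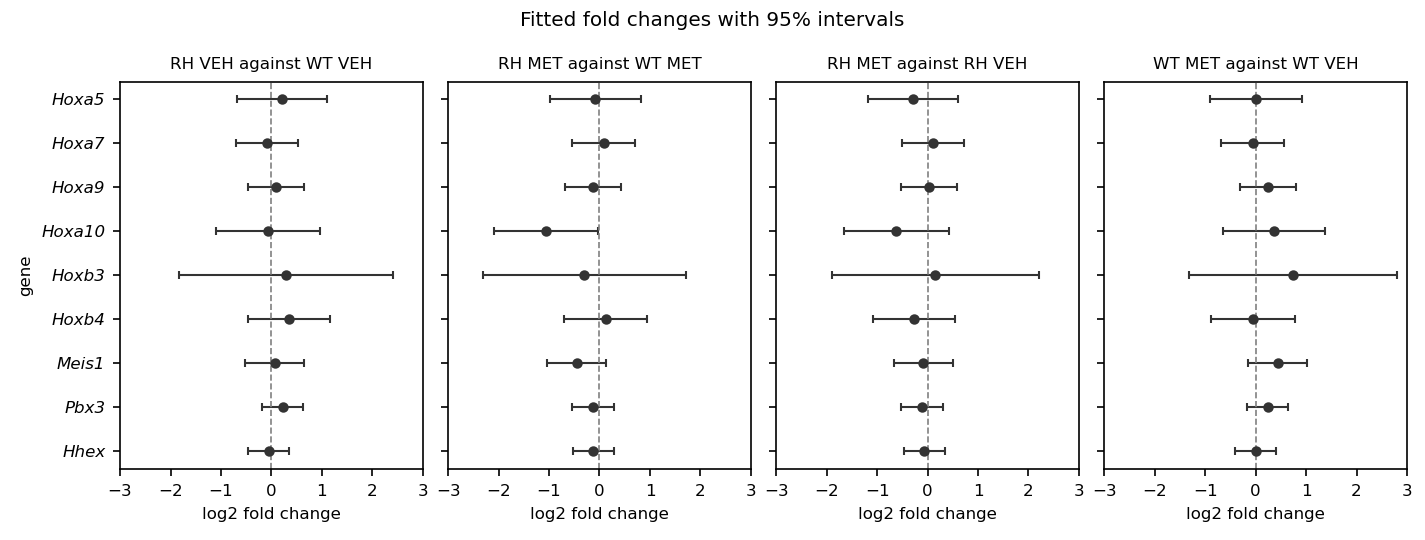
Fitted log2 fold changes (points) and their 95% intervals (bars) for the 9 homeobox genes in the 4 comparisons between single groups, each panel giving the group named first over the group named second. Every interval crosses 0 except that of Hoxa10 for RH MET against WT MET (−2.09 to −0.03), and the intervals of Hoxb3 are the widest.

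Among the TALE partners, Meis1 is required for blood formation in the mouse embryo and for megakaryocytes, and it cooperates with Hoxa9 in leukaemia. Meis1 had 18.8, 23.8 and 26.6 CPM in RH MET, 20.6, 38.6 and 25.2 CPM in RH VEH, 27.5, 54.3 and 27 CPM in WT MET and 15.6, 24.7 and 31 CPM in WT VEH. All RH MET libraries were below all WT MET libraries, by a margin of under 1 CPM at the nearest pair, and the other groups compared overlapped. WT MET 2 and RH VEH 2, the libraries rich in mitochondrial RNA, were the highest of the 12. The fitted log2 fold change of Meis1 was −0.46 ± 0.27 for RH MET against WT MET (SE, n = 3 libraries per group; 95% interval −1.04 to 0.13; edgeR adjusted p = 0.738) and 0.06 ± 0.27 for RH VEH against WT VEH (−0.52 to 0.65; adjusted p = 0.989). For metformin it was −0.082 ± 0.27 in RH MET against RH VEH (−0.67 to 0.50) and 0.43 ± 0.27 in WT MET against WT VEH (−0.15 to 1.02). Without the 2 mitochondria-rich libraries the value for RH MET against WT MET was −0.20, and that for WT MET against WT VEH was 0.16.

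Pbx3 encodes the TALE protein that pairs with Hox proteins and Meis1 in leukaemia, and it was among the steadiest of the 9. Pbx3 had 17.4, 12.7 and 13.6 CPM in RH MET, 17.6, 14.2 and 12.4 CPM in RH VEH, 16.6, 13.8 and 14.1 CPM in WT MET and 16.7, 13.5 and 10.7 CPM in WT VEH. The ranges of all 4 groups overlapped and the highest library of each group was one of round 1, the 6 libraries found in both deposited tables. For RH VEH against WT VEH the log2 fold change was 0.22 ± 0.19 (SE; 95% interval −0.19 to 0.63), and for RH MET against WT MET it was −0.13 ± 0.19 (−0.54 to 0.28). For metformin it was −0.11 ± 0.19 in mutant cells (−0.52 to 0.30) and 0.24 ± 0.19 in wild-type cells (−0.17 to 0.65), so changes of more than 0.65 in size lie outside all 4 intervals.

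Hoxa9, which supports the self-renewal of stem and progenitor cells, held the most counts of the Hox genes. Hoxa9 had 8.93, 12.5 and 12 CPM in RH MET, 12, 9.2 and 13.2 CPM in RH VEH, 8.43, 16.6 and 14.9 CPM in WT MET and 10.8, 8.19 and 11.8 CPM in WT VEH. WT MET held both of the highest values of the 12 as well as one of the lowest, and no 2 groups were apart. The log2 fold change was 0.086 ± 0.26 for RH VEH against WT VEH (SE; 95% interval −0.47 to 0.64) and −0.13 ± 0.26 for RH MET against WT MET (−0.68 to 0.43). Hoxa7, its neighbour in the cluster, had 4.91, 6.85 and 5.96 CPM in RH MET, 5.69, 5.26 and 6.94 CPM in RH VEH, 5.01, 6.69 and 6.93 CPM in WT MET and 5.19, 3.95 and 9 CPM in WT VEH. WT VEH held both the lowest and the highest value, so it spanned the other 3 groups. The log2 fold change of Hoxa7 was −0.092 ± 0.29 for RH VEH against WT VEH (SE; 95% interval −0.71 to 0.53) and 0.081 ± 0.29 for RH MET against WT MET (−0.54 to 0.70).

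Hoxa10 is the most posterior gene of the Hoxa cluster that is still active in these cells, and its overexpression expands progenitors in mouse bone marrow. Hoxa10 had 0.545, 1.08 and 1.49 CPM in RH MET, 1.9, 1.91 and 1.23 CPM in RH VEH, 1.83, 3.65 and 1.61 CPM in WT MET and 1.16, 1.85 and 1.94 CPM in WT VEH. All RH MET libraries were below all WT MET libraries, and they overlapped with RH VEH and WT VEH. The nearest pair was RH MET 3 at 1.49 CPM (37 counts) and WT MET 3 at 1.61 CPM (30 counts), so a few reads decide whether the groups are apart. These levels rest on 68 counts in RH MET, 78 in RH VEH, 97 in WT MET and 99 in WT VEH. The fitted log2 fold change for RH MET against WT MET was −1.06 ± 0.47 (SE, n = 3 per group; 95% interval −2.09 to −0.03), with an edgeR p of 0.0431 before and 0.738 after adjustment over all genes. It was −0.70 without the 2 mitochondria-rich libraries, −1.17 in the round 1 libraries alone and −0.78 in the round 2 libraries alone, round 2 being the 6 libraries found in the larger table only. For RH VEH against WT VEH the value was −0.067 ± 0.47 (−1.09 to 0.96), and the difference between the metformin effects in mutant and wild-type cells was −0.99 ± 0.69 (−2.48 to 0.49; adjusted p = 0.65).

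Hoxa10 and Meis1 were the 2 of 9 genes whose libraries did not overlap between RH MET and WT MET, both lower in RH MET. These levels, like the marker sums below, were not adjusted for round, which was unbalanced here. RH MET 1, RH MET 2 and WT MET 1 were of round 1, and RH MET 3, WT MET 2 and WT MET 3 of round 2. For RH MET against WT MET the log2 fold change of Meis1 was −0.46 with and −0.65 without the round term, and that of Hoxa10 was −1.06 and −1.15. In that comparison 8.94% of all genes tested were apart in the lower and 7.97% in the higher direction. In RH VEH against WT VEH 0 of 9 were apart, against 2.71% of all genes higher and 3.23% lower, and in RH MET against RH VEH 0 of 9, against 4.11% higher and 2.81% lower. For WT MET against WT VEH it was 0 of 9, against 4.98% higher and 4.4% lower. Over the 6 RH against the 6 WT libraries 0 of 9 were apart, against 0.02% of all genes higher and 0.0733% lower, and over the 6 MET against the 6 VEH libraries 0 of 9, against 0.0667% higher and 0.00667% lower.

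Markers of several cell types differed in sign or level in the same comparison, with 0 called by edgeR in each list. The 12 stem cell markers summed to 243 to 264 CPM in RH MET and 238 to 481 CPM in WT MET, and 11 of the 12 had negative log2 fold changes, with a median of −0.64 against −0.017 for all genes and an unadjusted p under 0.05 for 4, as had 5.78% of all genes. The 7 megakaryocyte markers summed to 554 to 566 CPM in RH MET and 590 to 1580 CPM in WT MET, and 6 of 6 tested were negative, with a median of −0.71. Without the mitochondria-rich libraries these medians were −0.40 for the stem cell and −0.26 for the megakaryocyte markers. Of the 9 late neutrophil markers, which summed to 2870 to 4290 CPM in RH MET and 628 to 2830 CPM in WT MET, 9 were positive, with a median of 1.17, and 0.75 without those libraries. The 11 T and NK cell markers, at 49.9 to 101 CPM in RH MET and 93.6 to 123 CPM in WT MET, were negative in 11 cases, with a median of −1.14, and −0.93 without those libraries, and 7 of the 11 had an unadjusted p under 0.05. The 6 dendritic cell markers, at 19.8 to 33 CPM in RH MET and 37 to 50.2 CPM in WT MET, were negative in 6 cases, with a median of −0.71, and −0.66 without those libraries. Of the 10 erythroid markers, at 5670 to 8580 CPM in RH MET and 8010 to 11400 CPM in WT MET, 9 were negative, with a median of −0.26, and 10 with a median of −0.40 without those libraries. Of the 9 stromal and endothelial markers, at 111 to 631 CPM in RH MET and 101 to 764 CPM in WT MET, 8 were negative, with a median of −0.41, and 8 with a median of −0.90 without those libraries. Of the 6 progenitor markers 4 were positive (median 0.025, and −0.13 without those libraries). Positive values were also found for 6 of 6 promyelocyte (0.30 and −0.013), 4 of 8 monocyte (0.087 and −0.079), 5 of 6 mast cell and basophil (0.21 and −0.030) and 3 of 8 B cell markers (−0.39 and −0.066). None of the stem cell markers was at 0 in all libraries; among the 7 megakaryocyte markers Gp1bb was at 0 in 5 of 12 libraries. The part of these shifts in the values of Hoxa10 and Meis1 was not tested. In bulk libraries fewer cells of a type and less RNA per cell cannot be told apart.

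Hoxa5, another gene of the Hoxa cluster, had 1.34, 1.67 and 2.29 CPM in RH MET, 2.36, 1.43 and 2.75 CPM in RH VEH, 2.42, 1.93 and 1.4 CPM in WT MET and 1.32, 1.76 and 2.52 CPM in WT VEH. Each group ran from under 1.5 to above 2.2 CPM, so the groups overlapped almost fully. Its log2 fold change was 0.22 ± 0.42 for RH VEH against WT VEH (SE; 95% interval −0.69 to 1.11) and −0.082 ± 0.42 for RH MET against WT MET (−0.99 to 0.82). For metformin it was −0.29 ± 0.42 in mutant cells (−1.19 to 0.61).

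In the Hoxb cluster, Hoxb4 is known for expanding haematopoietic stem cells when it is overexpressed. Hoxb4 had 2.88, 2.86 and 4.23 CPM in RH MET, 3.33, 8.96 and 4.03 CPM in RH VEH, 1.59, 7.3 and 4.35 CPM in WT MET and 2.26, 2.49 and 5.37 CPM in WT VEH. The highest values were again those of RH VEH 2 and WT MET 2, and all groups overlapped. The log2 fold change was 0.35 ± 0.38 for RH VEH against WT VEH (SE; 95% interval −0.47 to 1.17) and 0.13 ± 0.38 for RH MET against WT MET (−0.70 to 0.95). Hoxb3, whose loss in mice has been studied together with that of Hoxb4, had 0.347, 0.485 and 0.604 CPM in RH MET, 0.872, 0 and 0.295 CPM in RH VEH, 0.118, 1.32 and 0.537 CPM in WT MET and 0.221, 0.439 and 0.387 CPM in WT VEH. Library RH VEH 2 had no Hoxb3 count, which allows a level of up to 0.358 CPM (3 counts, counting error only), while WT MET 2 had the highest level. With at most 17 counts in any library, the intervals of Hoxb3 ran from −1.83 to 2.40 for RH VEH against WT VEH and from −2.31 to 1.71 for RH MET against WT MET on the log2 scale. The vehicle interval takes in a 4-fold higher but not a 4-fold lower level, and the metformin interval a 4-fold lower but not a 4-fold higher level.

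Hhex, which is needed for normal lymphoid development and acts in early blood progenitors, varied least of the 9 genes, with a coefficient of variation of 14.6% over the 12 libraries against 3.79% from counting alone. Hhex had 27.9, 38.4 and 40.7 CPM in RH MET, 39.8, 33.3 and 41.8 CPM in RH VEH, 40.7, 35.1 and 44.4 CPM in WT MET and 32.1, 36.4 and 48 CPM in WT VEH. WT VEH held the highest value and RH MET the lowest, and the 4 groups overlapped. The log2 fold change was −0.057 ± 0.19 for RH VEH against WT VEH (SE; 95% interval −0.47 to 0.35) and −0.12 ± 0.19 for RH MET against WT MET (−0.53 to 0.29). For metformin it was −0.061 ± 0.19 in mutant cells (−0.47 to 0.35), and in wild-type cells the interval ran from −0.40 to 0.41. The other coefficients of variation were 15% for Pbx3, 22.1% for Hoxa7, 22.6% for Hoxa9, 26.7% for Hoxa5, 36.6% for Meis1, 44.9% for Hoxa10, 52.3% for Hoxb4 and 75.2% for Hoxb3. In each case this was above the part from counting alone, which ran from 3.79% for Hhex to 34.6% for Hoxb3.

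**Figure D3:**
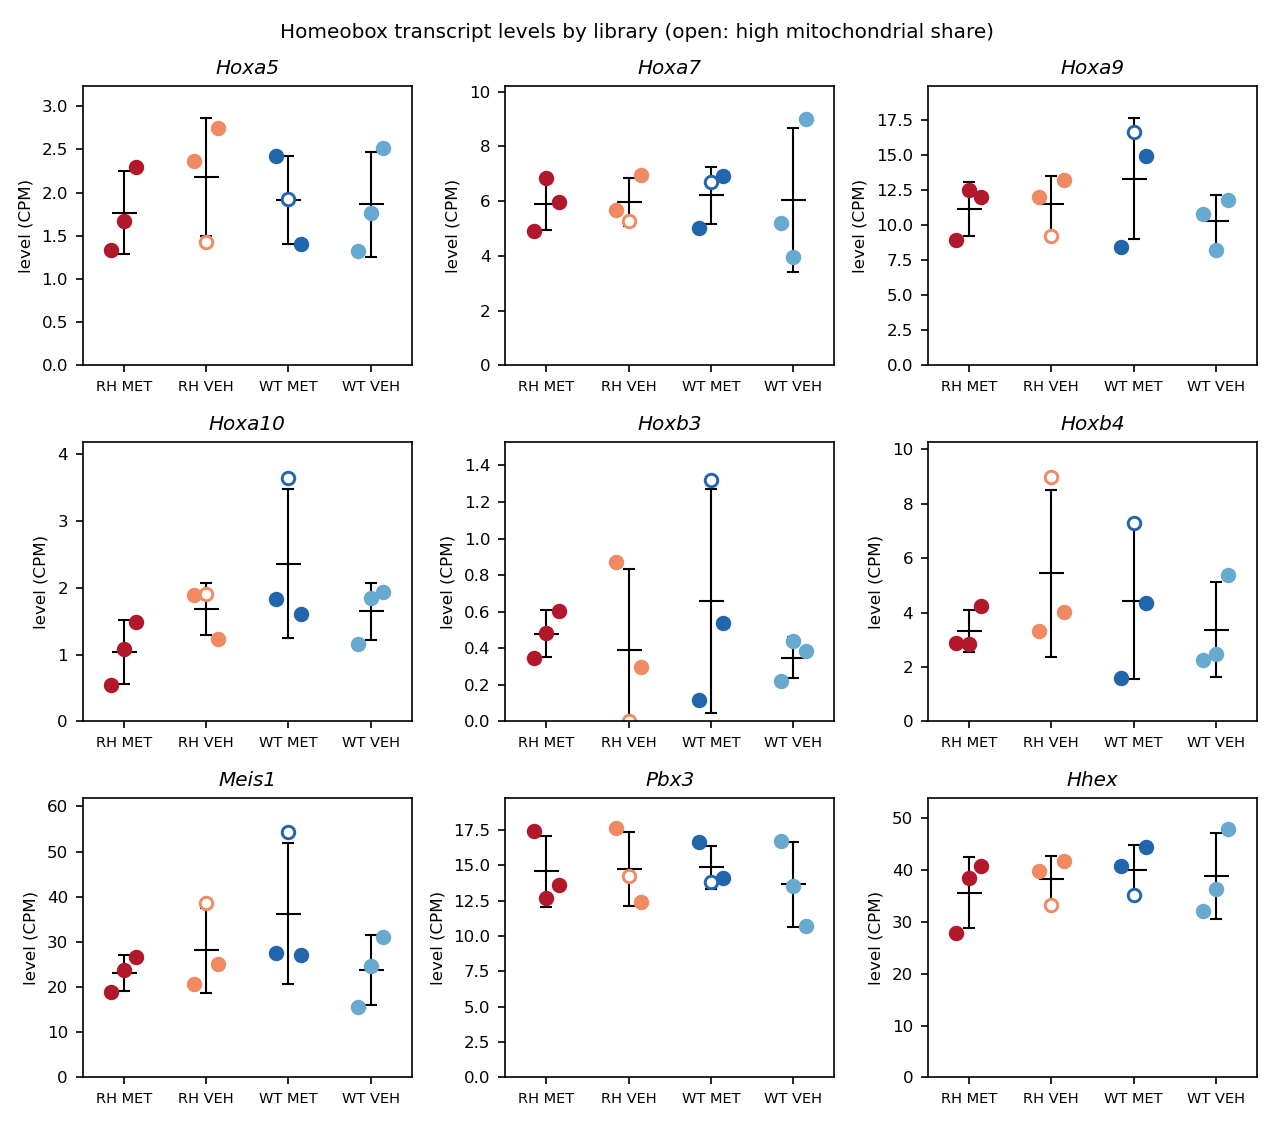
Level of each homeobox gene in CPM (vertical axes from 0, one scale per gene) in the 12 libraries, by group, with the group mean and SD as black bars. Open circles are RH VEH 2 and WT MET 2, the 2 libraries of high mitochondrial share; they are the 2 highest for Meis1 (38.6 and 54.3 CPM) and Hoxb4 (8.96 and 7.3 CPM), and the RH MET points of Hoxa10 and Meis1 all lie below the WT MET points.

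Over both treatments, the mean genotype effect was between −0.56 ± 0.33 (Hoxa10; SE, 95% interval −1.27 to 0.14) and 0.24 ± 0.26 (Hoxb4; −0.32 to 0.80) on the log2 scale. The median over the 9 genes was −0.0062, beside −0.001 over all genes tested, with 3 positive and 6 negative. Between these ends, Meis1 was at −0.20 ± 0.19 (−0.60 to 0.21), and the intervals of Pbx3 (−0.23 to 0.33), Hhex (−0.37 to 0.19), Hoxa9 (−0.40 to 0.36) and Hoxa7 (−0.43 to 0.42) all lay within 1 of 0, which is a 2-fold change. So did that of Hoxa5 (−0.56 to 0.69). The mean metformin effect was between −0.16 ± 0.26 (Hoxb4) and 0.45 ± 0.66 (Hoxb3), with 5 positive and 4 negative and a median of 0.027 beside −0.0068 over all genes. Its intervals for Hhex (−0.31 to 0.25), Pbx3 (−0.21 to 0.35), Hoxa7 (−0.40 to 0.45), Hoxa9 (−0.24 to 0.53) and Meis1 (−0.23 to 0.58) all lay within 1 of 0.

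The 2 mitochondria-rich libraries differed from their groups in a gene-specific way. Relative to the mean of the other 2 libraries of its group, RH VEH 2 had 2.43 and WT MET 2 had 2.46 times the level of Hoxb4. For Meis1 the ratios were 1.69 in RH VEH 2 and 1.99 in WT MET 2, and for Hoxa10 they were 1.22 and 2.12 in the same order. Hhex was lower in both libraries, at 0.817 and 0.824, as a ratio to the same means. Hoxa9 went apart, at 0.731 in RH VEH 2 and 1.43 in WT MET 2, and Pbx3 was near 1 in both, at 0.947 and 0.897. In these 2 libraries the 12 stem cell markers summed to 367 to 481 CPM, against 210 to 297 CPM in the other 10, and the 7 megakaryocyte markers to 1240 to 1580 CPM, against 392 to 820 CPM. The 9 late neutrophil markers summed to 612 to 628 CPM, against 1270 to 4340 CPM, and the 6 promyelocyte markers to 928 to 1050 CPM, against 1860 to 3460 CPM. Their part in the levels of Hoxb4, Meis1 and Hoxa10 was not tested.

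**Figure D4:**
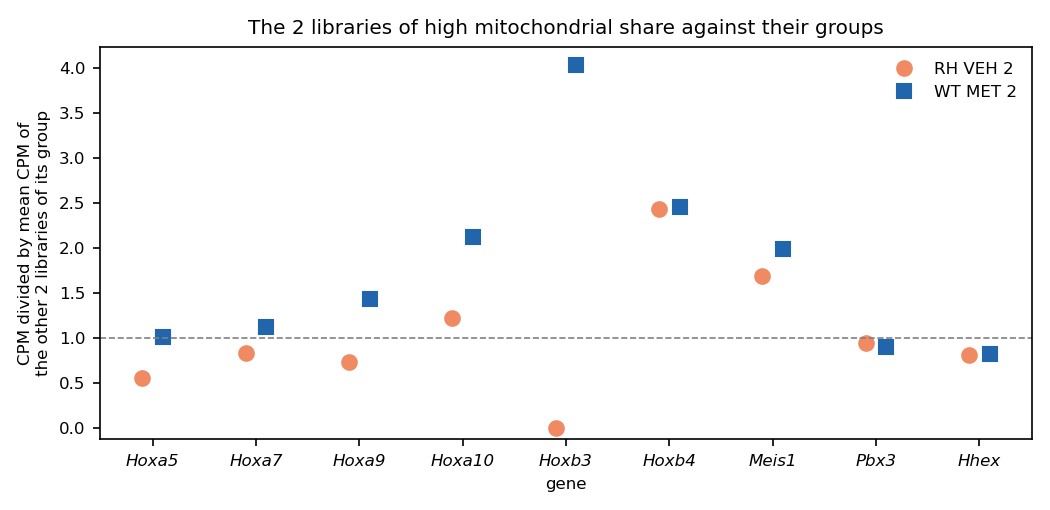
Level of each homeobox gene in RH VEH 2 (circles) and WT MET 2 (squares), divided by the mean CPM of the other 2 libraries of the same group; the dashed line marks a ratio of 1. Hoxb4, Meis1 and Hoxa10 are above 1 in both libraries and Hhex and Pbx3 below 1 in both, while Hoxb3 is at 0 in RH VEH 2 and 4.03 in WT MET 2.

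The 2 rounds hold 6 libraries each and cross all 4 groups, and 3 of the 9 genes had an unadjusted p under 0.05 between rounds, as had 14.4% of all genes tested. Hoxb4 averaged 5.71 ± 2.00 CPM in round 2 and 2.57 ± 0.603 CPM in round 1 (SD, n = 6 each), a log2 difference of 1.11 ± 0.28 (SE; edgeR adjusted p = 0.152). Meis1 averaged 33.8 ± 11.1 CPM in round 2 and 21.8 ± 4.34 CPM in round 1 (0.53 ± 0.20; edgeR adjusted p = 0.27). Pbx3 ran the other way, with 13.1 ± 1.35 CPM in round 2 and 15.7 ± 2.10 CPM in round 1 (−0.32 ± 0.14; edgeR adjusted p = 0.315). None of the 9 passed the threshold, and 0.0467% of all genes did. Both mitochondria-rich libraries belong to round 2, and the fit behind the group comparisons included the round as a term.

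Across the 12 libraries, the 36 pairs of genes were compared by the correlation of their log2 CPM, which share depth and scaling within a library. No pair passed Benjamini-Hochberg adjustment over the 36 pairs, and 8 had an unadjusted permutation p under 0.05, of which 6 were positive and 2 negative. Hoxa10 and Meis1 had r = 0.766 and rho = 0.748 (permutation p = 0.00687 and 0.00663, adjusted p = 0.0959 and 0.119). Without the 2 libraries farthest from the median of Hoxa10, r was 0.544, so the relation rests in part on those libraries; without the mitochondria-rich libraries it was 0.571, within round 1 it was 0.507 and within round 2 it was 0.954. Hoxa7 and Hoxa9, neighbours in the cluster, had r = 0.737 and rho = 0.783 (permutation p = 0.00651 and 0.00394, adjusted p = 0.0959 and 0.119), with r = 0.886 without the 2 libraries farthest from the median of Hoxa7, 0.77 without the mitochondria-rich libraries, 0.866 within round 1 and 0.367 within round 2. Hoxb4 and Meis1 had r = 0.725 and rho = 0.678 (permutation p = 0.00799 and 0.0182, adjusted p = 0.0959 and 0.131). Without the 2 libraries farthest from the median of Hoxb4 r was 0.89, but without the mitochondria-rich libraries it was 0.412, and it was −0.365 within round 1 and 0.838 within round 2, so the relation of Hoxb4 and Meis1 did not hold within round 1. Both negative pairs involved Pbx3. Hoxa7 and Pbx3 had r = −0.639 and rho = −0.615 (permutation p = 0.024 and 0.0369, adjusted p = 0.136 and 0.201), with r = −0.80 without the 2 libraries farthest from the median of Hoxa7, −0.104 within round 1 and −0.844 within round 2, so this relation did not hold within round 1. Pbx3 and Hhex had r = −0.584 and rho = −0.531 (permutation p = 0.0457 and 0.0776, adjusted p = 0.206 and 0.279), with r = −0.576 without the 2 libraries farthest from the median of Pbx3, −0.282 within round 1 and −0.686 within round 2. The other 3 were Hoxa5 with Hhex (r = 0.669; 0.874 within round 1 and 0.435 within round 2), Hoxa9 with Hoxb3 (0.65; 0.548 and 0.893 in the same order) and Hoxa7 with Hhex (0.635; 0.255 and 0.807).

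Of the other TALE genes, Pbx2 stood at 14.5, Pbx4 at 7.77, Pknox1 at 5.75 and Tgif1 at 3.89 CPM per kb, above Meis1 and Pbx3. Tgif2 (0.795) and Meis3 (0.232) stood below them, and Meis2 and Pknox2 did not pass the filter. None of these genes that were tested was called in any comparison. Of the 5 other Hox genes tested, Hoxa3 had the smallest p, with a log2 fold change of −1.41 ± 0.54 for RH MET against WT MET (SE; edgeR adjusted p = 0.738) and −0.89 without the mitochondria-rich libraries.

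Regulators of Hox transcription were compared next. The activators of Hox genes listed were Kmt2a, its partners and cofactors, and the 3 Cdx genes. Of these, 10 of 13 were tested, the 3 Cdx genes having 0 counts in all libraries. None was called in any comparison. Their signs were opposite under vehicle and under metformin: for RH VEH against WT VEH 1 was positive and 9 negative (median −0.22 beside 0.0023 over all genes), and for RH MET against WT MET 9 were positive and 1 negative (median 0.26 beside −0.017). For WT MET against WT VEH 1 was positive and 9 negative, with a median of −0.35 beside 0.013. For RH MET against RH VEH 9 were positive and 1 negative, with a median of 0.15 beside −0.0054. The 4 comparisons share libraries, so their signs are not independent. Without the mitochondria-rich libraries the counts were 2 positive and 8 negative (median −0.14), 9 positive and 1 negative (median 0.24), 1 positive and 9 negative (median −0.32), and 7 positive and 3 negative (median 0.078), for the 4 comparisons as listed. The difference between the metformin effects in mutant and wild-type cells was positive for 9 and negative for 1, with a median of 0.525 beside −0.020, and 0.39 without those libraries. The values of smallest p were those of Mllt1 for RH VEH against WT VEH (−0.40 ± 0.18; edgeR adjusted p = 0.977), Men1, which encodes the Kmt2a partner menin, for RH MET against WT MET (0.30 ± 0.14; edgeR adjusted p = 0.738), and Aff1 for WT MET against WT VEH (−0.55 ± 0.20; edgeR adjusted p = 0.876). Kmt2a, which encodes the methyltransferase that keeps Hoxa genes active, was at −0.47 ± 0.23 for RH VEH against WT VEH and −0.54 ± 0.23 for WT MET against WT VEH (edgeR adjusted p = 0.977 and 0.876). Of the 10 Polycomb genes, whose products hold Hox genes silent, 10 were tested and 0 called. Their median was 0.086 for RH VEH against WT VEH (8 positive, 2 negative) and −0.11 for RH MET against WT MET (4 positive, 6 negative).

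Genes known downstream of Hoxa9 and Meis1 were all measured, 17 of 17, and 0 were called in any comparison. For the mean of RH against the mean of WT, 2 were positive and 15 negative, with a median of −0.12 beside −0.001 over all genes. The smallest p was that of Pim1, a survival kinase gene, at −0.44 ± 0.12 (SE; 95% interval −0.71 to −0.17; edgeR adjusted p = 1). Hlf, which encodes a stem cell transcription factor and is also among the stem cell markers, was at −0.41 ± 0.17 (edgeR adjusted p = 1). These 2 of 17 had an unadjusted p under 0.05, as had 2.65% of all genes, and without the mitochondria-rich libraries Pim1 was at −0.33 and Hlf at −0.24. In RH MET against WT MET the list had 9 positive and 8 negative values, with a median of 0.0019 (3 positive, 14 negative and −0.13 without the mitochondria-rich libraries), and Pim1 was at −0.55 ± 0.18 and Hlf at −0.75 ± 0.25 (edgeR adjusted p = 0.738 for each). Flt3, whose transcription Meis1 and Hoxa9 raise in leukaemia models, stood at 36.9 ± 12.2 CPM over the 12 libraries and was not among the 2 genes of smallest p in either comparison.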

How the data were processed

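The authors deposited raw read counts per gene, not normalized, for 12 libraries. The submitters' processing notes name the build mm10, STAR 2.5 and HTSeq 0.6.1 without settings, and strand and multiply mapped reads were handled in a way not given in the sources used here. Library preparation was with NEBNext Ultra reagents and a column kit for RNA, per the labels' protocols. A smaller deposited table repeats 6 of the columns with identical counts (round 1; the other 6 are round 2), and 2 of its columns matched no sample and were not used. Library numbers are those of the table's columns, and for 7 columns the column name gives the group but not the exact sample. Among these 7, RH VEH 1 is the only RH VEH library of round 1. The RH VEH column of the smaller table that was used is numbered 2, so column numbers are not the same in both tables.

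Tests used the robust quasi-likelihood functions of edgeR 4.0.16 (R 4.3.3) on all 12 libraries, with TMM scaling, a low-count filter (filterByExpr, which kept 15003 genes) and a model of the 4 groups and the round. Benjamini-Hochberg adjustment ran over all genes tested, and intervals are 95%. The biological coefficient of variation was 0.256. After scaling, 1 CPM stood for 17 to 24.8 counts in 10 libraries, and for 8.37 counts in RH VEH 2 and 9.86 counts in WT MET 2. Alternatives were DESeq2 1.42.0, its size factors, no filter, no round term, a replicate block, each library left out, each round alone, and no mitochondrial genes or mitochondria-rich libraries. Correlations used 100000 permutations, or all orders within a round. The tests were also tried on simulated data.

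The 9 genes and the lists were chosen with earlier results of these data known. Of each list, the 2 genes of smallest p in a comparison and, for Hox and TALE genes, those of highest level were named; Kmt2a in WT MET against WT VEH and Flt3 were named after their values were seen. One gene's result and the summary of its list are not reported here. Gene positions match GENCODE M21 for all 9 genes, and promoters are from RefSeq (GRCm38.p6).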

Additional observations from a re-analysis of the deposited data

How the results depend on the processing

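None of the 9 homeobox genes passed the threshold in any of the 7 comparisons under any of the 21 alternatives, leaving out each library included (0 of 9 at the lowest and 0 of 9 at the highest). Of 1323 alternative fold changes, 1138 kept the sign of the reported value and 185 did not, each of these where the reported value was smaller than its SE; 18 of the 63 reported values kept their sign throughout. Hoxa10 for RH MET against WT MET ranged from −1.38 to −0.70 and Meis1 from −0.65 to −0.19; without WT MET 2 they were at −0.70 and −0.19. Over all genes edgeR called 0 or 1 per comparison in the main fit and 63 to 431 of 27530 with no filter. It called up to 3 without the mitochondria-rich libraries, and up to 2 with the replicate block or with 1 library left out. DESeq2 called 0 to 22, and none of the 9 was among the genes called in any of these fits. DESeq2 gave 1 of the 9 no adjusted p in RH MET against WT MET and in the mean genotype effect. With the column number as a replicate block in place of the round, 0 of the 9 were called. At an unadjusted p under 0.05 the block gave 2 of 9 for RH MET against WT MET (Hoxa10 at −1.14 and Meis1 at −0.60, with 9.6% of all genes), 1 of 9 for WT MET against WT VEH (Meis1 at 0.59, with 7.81%) and 1 of 9 for the difference between metformin effects (Meis1 at −0.83, with 13.1%), against 1, 0 and 0 without the block. Of 18 same-numbered pairs, 14 had a correlation of deviations over 0.1 (range −0.0143 to 0.489). All 3 pairs of RH VEH with WT VEH were over it, and there the blocked median of the 9 was 0.17, with 0 called. However, RH VEH 2 had a higher correlation with WT VEH 1 (0.203) than with the same-numbered WT VEH 2 (0.121). For the other 3 comparisons between single groups at least 1 same-numbered pair was not over 0.1. The numbers were therefore not taken as a pairing in any comparison. Number 1 lies in round 1 and number 3 in round 2 in all 4 groups, so number and round are not independent. Of the 36 correlations between the genes, 0 passed over 12 libraries, 0 without the mitochondria-rich libraries, 0 within each round and 2 without the 2 libraries farthest from the median (Hoxa7 with Hoxa9 and Hoxb4 with Meis1); the cause was not tested. Depth limits Hoxb3 most (100 counts in all), then Hoxa10 (342) and Hoxa5 (427).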

Other observations

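Profiles over the 12 libraries were compared by the mean absolute difference between log2 CPM scaled to mean 0 and SD 1. The genes most like each homeobox gene were looked up among 9177 well-expressed genes other than the 9 homeobox genes. For Meis1 they were the pseudogene Tmem181b-ps (0.164) and the kinase gene Tec (0.222), where the median gene was at 1.12 and the nearest of the other 8 homeobox genes, Hoxa10, at 0.512. For Hhex they were Lmo4 (0.264), which encodes a LIM-domain protein, and Epb41l4b (0.353), with Hoxa5 nearest among the 8 at 0.572. Hoxb4 was nearest to the proline dehydrogenase gene Prodh (0.254) and to Slc17a9 (0.326), and Hoxa7 to Rab44 (0.252) and Ppfia4 (0.294). Hoxa9 was nearest to Pla2g15 (0.308) and Emilin1 (0.373), and its cluster neighbour Hoxa7 was at 0.526. Hoxa10 was nearest to Kcng2 (0.302) and Mapk3 (0.362), Pbx3 to Mrpl36 (0.34) and Hnrnpc (0.346), Hoxb3 to Evi5l (0.396) and Ripk2 (0.406), and Hoxa5 to Ddx58 (0.429) and Sh3kbp1 (0.45). Since the 9 homeobox genes were left out of the search, none of them could be among the 2 nearest. The smallest of 9177 differences and the smallest of 8 are not measured alike, so they do not show whether the homeobox genes vary together. For Pbx3 the nearest of the other 8, Hoxa10, was at 1.12, against a median of 1.07 over the genes searched. These values describe 12 libraries that share depth, round and mitochondrial share, and no test was made of them.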
